A study of Mus musculus with 4 samples.

Results

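The genes Fhit, Wwox, Immp2l, Magi2, Lrp1b, Macrod2, Dlg2 and Auts2 are 8 very long mouse genes whose human counterparts are known for lying at or in common fragile sites. Replication across them was read from a TrAEL-seq table of mouse embryonic stem cells. TrAEL-seq tags free 3′ ends of DNA, many of which lie at replication forks, and keeps the strand on which each end was found. The deposited table gives a signed strand imbalance, called polarity here, in windows of 100 kb spaced 25 kb along GRCm38. Polarity is in percentage points (points) and is bounded at -50 and 50. Windows were assigned to a gene when their midpoint lay inside its RefSeq interval or within 300 kb of either end. This gave 676 of the 109033 windows, and each of them had a value in all 4 libraries. All cells were embryonic stem cells of the 129S6/SvEvTac line, grown on gelatin in medium with serum and LIF. Snf2h is an ATPase of the ISWI family of chromatin remodellers. The wild-type group (WT) and the group lacking Snf2h (KO) had 2 libraries each from duplicate cultures. The labels do not say how Snf2h was inactivated or whether the KO line is a single clone, and no value here checks the genotypes. Values of a genotype are given with replicate 1 first and replicate 2 after it. P-values rest on the spread between these cultures, which limma shares in part or in full over the features of a fit.

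Common fragile sites are chromosome regions that break or form gaps when replication is slowed. Many of them coincide with very long genes in which few origins fire, so that forks have to travel far from the flanks and meet late inside the gene. Transcription through such genes, and whether it runs with or against the forks, is a recurrent theme of work on these sites. Breakage, transcription and replication timing were not measured here.

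A strand profile changes abruptly where forks leave an initiation zone in both directions and slowly where forks converge over a broad region. In these data rises of polarity along the chromosome were steeper than falls in every library. The median steepness of rises was 12.2 and 10.8 points per 100 kb in WT, against 16.1 and 12.3 points per 100 kb in the KO libraries. The median steepness of falls was 8.97 and 8.26 points per 100 kb in WT, against 11.6 and 10.1 points per 100 kb in KO. The strand counted as positive is not stated in the sources used here. If rises are read as initiation zones, positive polarity stands for forks that mostly move towards higher coordinates. A long run of a single sign then stands for unbroken fork direction. Runs were counted inside the gene only, so a run that reaches a gene end can go on beyond it. The sign was turned along the gene for the 5 members whose strand was given (Fhit on the minus strand, and Immp2l, Magi2, Macrod2 and Dlg2 on the plus strand). For Wwox, Lrp1b and Auts2 no strand was given, so their values run along the coordinates.

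Fhit (gene ID 14198) spans 1612 kb at chr14:9550092-11162061 and encodes a hydrolase of diadenosine polyphosphates that acts as a tumour suppressor. Wwox (gene ID 80707) spans 913 kb at chr8:114439635-115352712 and encodes an oxidoreductase with WW domains, also a tumour suppressor. Immp2l (gene ID 93757) spans 932 kb at chr12:41024061-41955588 and encodes a subunit of the peptidase of the mitochondrial inner membrane. Macrod2 (gene ID 72899), at chr2:140395303-142392966 (1998 kb), encodes an enzyme that removes ADP-ribose from proteins. Magi2 (gene ID 50791), at chr5:19219387-20704792 (1485 kb), and Dlg2 (gene ID 23859), at chr7:90476188-92449246 (1973 kb), encode scaffold proteins of synapses and cell junctions. Lrp1b (gene ID 94217), at chr2:40595290-42653598 (2058 kb), encodes a receptor of the low-density lipoprotein receptor family. Auts2 (gene ID 319974), at chr5:131437333-132543220 (1106 kb), encodes a nuclear regulator of neuronal development. Only gene intervals were used, so exons, introns and UTRs were not told apart.

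Promoter sequences of 3 members are shown because these genes differ in what the profile does at their 5′ end. The 5′ end of Immp2l lay inside a rise of the profile, that of Macrod2 lay just beyond the end of a rise, and that of Fhit had no rise within 100 kb. Each sequence runs 5′ to 3′ on the strand of the gene, from 250 bases before the start to 50 bases after it, and is taken from RefSeq (GRCm38.p6). That start is the promoter table's own and lies slightly inside the gene interval given above for all 3 genes. The intervals are chr12:41023840-41024139 (plus strand) for Immp2l, chr2:140395180-140395479 (plus strand) for Macrod2 and chr14:11161986-11162285 (minus strand) for Fhit. Capitals mark the dinucleotide CG, which reads the same on both strands and is dense in CpG islands.
Immp2l: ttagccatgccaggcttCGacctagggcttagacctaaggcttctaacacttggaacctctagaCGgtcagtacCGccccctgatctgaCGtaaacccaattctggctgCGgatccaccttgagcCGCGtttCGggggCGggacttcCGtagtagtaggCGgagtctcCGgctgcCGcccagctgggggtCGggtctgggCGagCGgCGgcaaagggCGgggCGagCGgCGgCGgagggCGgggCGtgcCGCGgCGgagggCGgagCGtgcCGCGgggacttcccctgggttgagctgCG
Macrod2: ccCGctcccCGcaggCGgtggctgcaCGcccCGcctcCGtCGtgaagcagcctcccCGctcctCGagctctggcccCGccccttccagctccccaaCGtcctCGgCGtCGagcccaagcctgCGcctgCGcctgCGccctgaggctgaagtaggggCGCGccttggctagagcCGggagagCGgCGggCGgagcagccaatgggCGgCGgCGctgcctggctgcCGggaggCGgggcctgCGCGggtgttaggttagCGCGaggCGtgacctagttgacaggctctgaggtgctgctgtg
Fhit: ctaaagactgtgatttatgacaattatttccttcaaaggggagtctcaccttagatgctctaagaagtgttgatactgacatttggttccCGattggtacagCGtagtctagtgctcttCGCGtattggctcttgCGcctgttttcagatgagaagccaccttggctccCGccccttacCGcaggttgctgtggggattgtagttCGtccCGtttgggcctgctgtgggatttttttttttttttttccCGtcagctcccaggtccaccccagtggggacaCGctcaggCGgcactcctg
The Immp2l sequence holds 32 CG dinucleotides and the Macrod2 sequence 33, whereas the Fhit sequence holds 12. Of 32851 RefSeq promoters of the same length, 9.52% held at least as many as Immp2l, 8.56% at least as many as Macrod2 and 39.6% at least as many as Fhit, with a median of 7. These counts describe the letters shown. A polarity window is far wider than a promoter and does not resolve it.

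Rises and falls were called on the mean profile of the 4 libraries, smoothed by a running mean of 5 windows, wherever it changed by at least 1 SD (14.8 points) between a local extremum and the next. Within the members and their flanks 13 rises and 13 falls were found. Inside the genes there were 5 rises and 9 falls, and in the flanks 8 rises and 4 falls. The rises inside were at Wwox, Immp2l, Lrp1b, Dlg2 and Auts2, whereas Fhit, Magi2 and Macrod2 held none on the mean profile. Called in single libraries, a rise lay inside Macrod2 in 3 of 4 libraries, inside Fhit in 2 (WT replicate 2 and KO replicate 2) and inside Magi2 in 1 (WT replicate 2). Wwox was the member without a called fall. Rises inside the genes changed by 24.2 to 40.8 points and rises in the flanks by 16.5 to 55.2 points. The highest was beside the 3′ end of Dlg2.

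**Figure D1:**
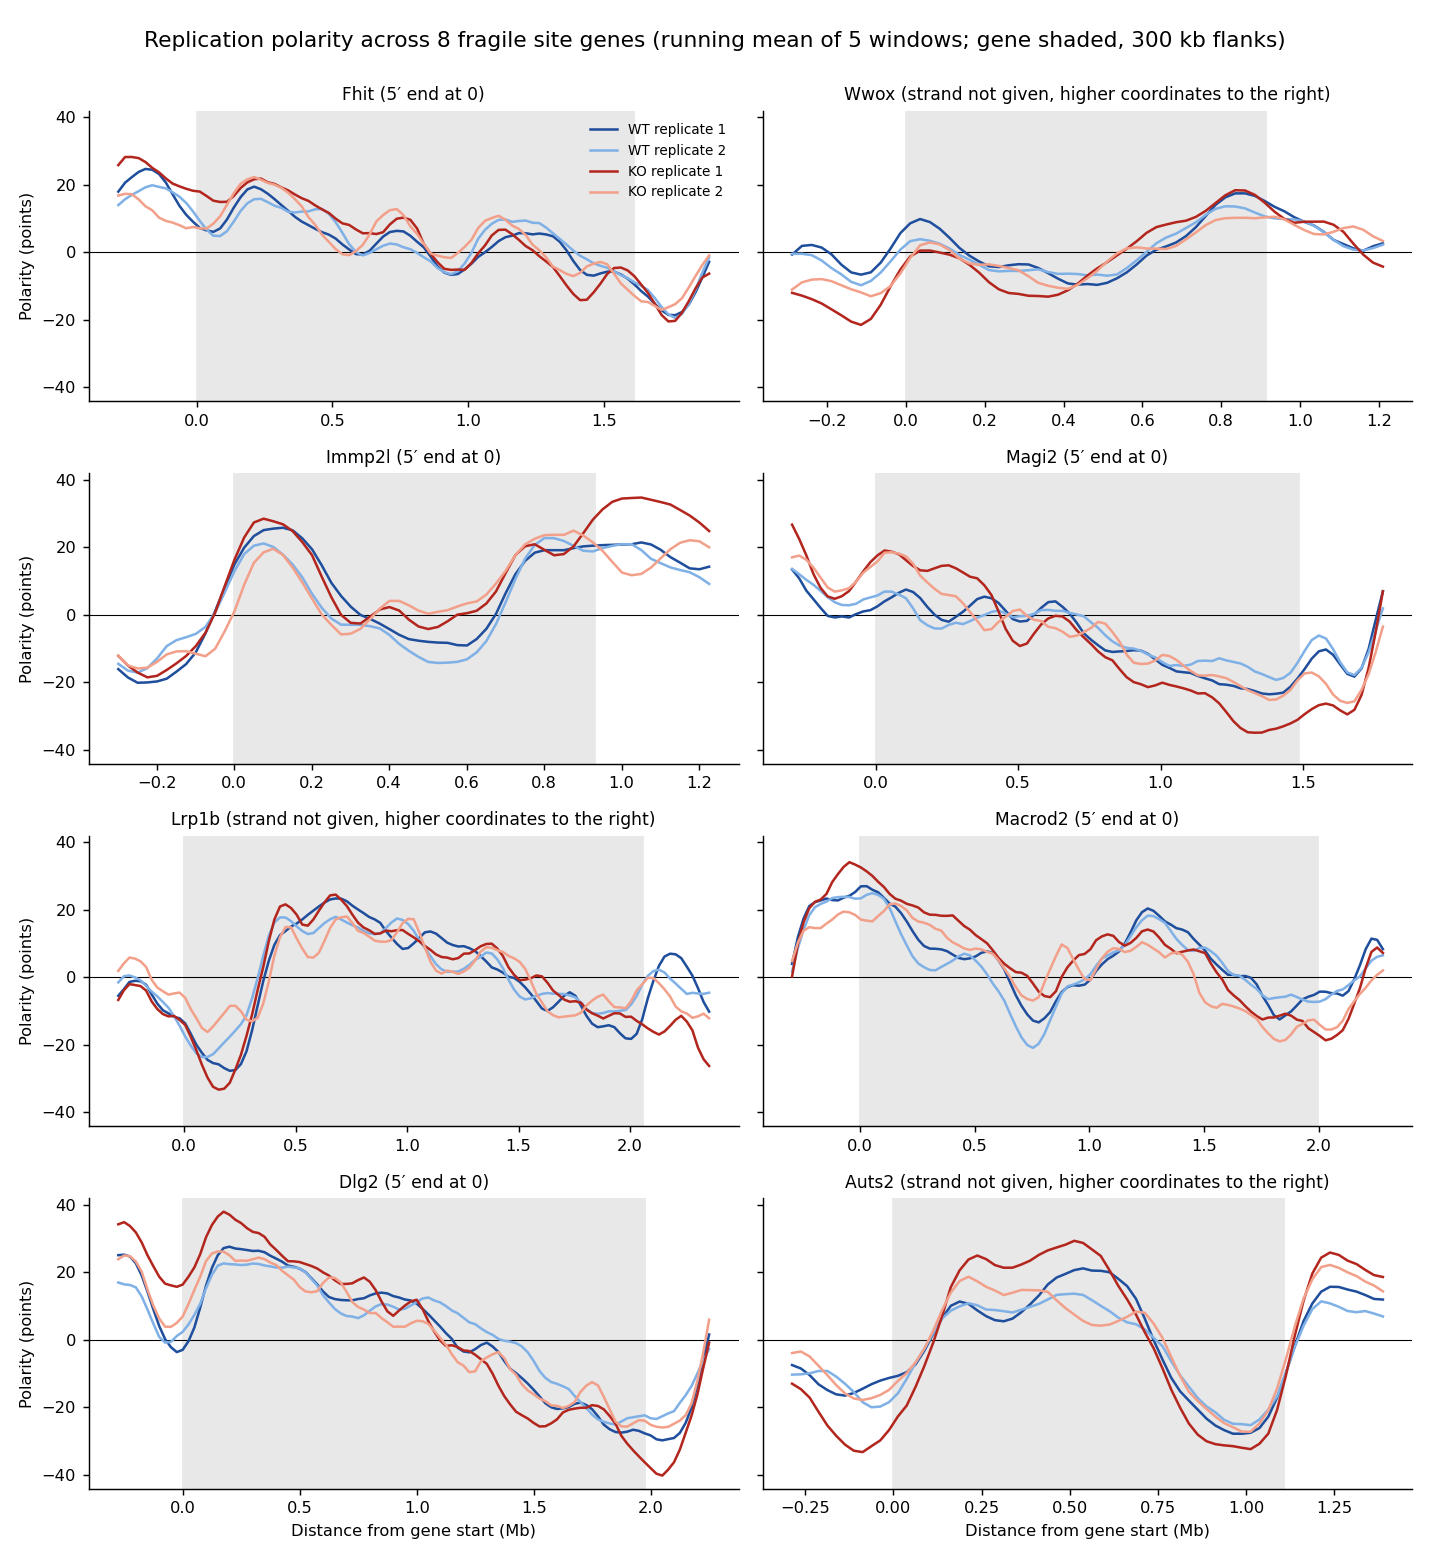
Polarity in points (running mean of 5 windows) against the distance from the gene start in Mb, for the 8 genes with 300 kb flanks, with a line per library and the gene shaded. Fhit, Immp2l, Magi2, Macrod2 and Dlg2 are drawn along their strand from the 5′ end, the others along the coordinates. Dlg2 shows a long decline between 2 rises, and Magi2, Macrod2 and Fhit hold no rise called on the mean profile within the shaded interval.

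No segment of the members differed between genotypes past the threshold, which was an adjusted p-value under 0.05 in limma with adjustment over all features of a fit. For the change across segments, 0 of 26 were called, against 0.387% of 4905 autosomal segments (3, or 11.5%, at an unadjusted p-value under 0.05, against 12.7%). The standard error of a segment's difference was 6.94 points at every member segment, since limma pooled the variance in full there. The pooled replicate SD ran from 1.48 points (a fall in Macrod2) to 14.3 points (the fall in Auts2). Segment p-values thus follow the size of the difference, not the replicate spread at that segment. For mean polarity inside the gene, limma called 0 of 8 members, against 0% of 532 autosomal protein-coding genes of at least 300 kb (0 at an unadjusted p-value under 0.05, against 13.9%). For the length of the longest run, 1 of 8 was called, Lrp1b, against 6.77% of the 532 genes (2 at an unadjusted p-value under 0.05, or 25%, against 12.2%). For the SD of polarity inside the gene, limma called 0 of 8, against 0.376% (1 at an unadjusted p-value under 0.05, Magi2, against 11.3%). Of 170 windows that do not overlap, limma called 0 (31, or 18.2%, at an unadjusted p-value under 0.05), against 0.0549% of 23672 autosomal windows (12.2% at an unadjusted p-value under 0.05). Both KO values were above both WT values in 43 of the 170 windows and below both in 42, together 85, which is 50% against 44.7% of all windows.

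The KO libraries were not alike in amplitude. The SD of polarity over all autosomal windows was 14.6 and 12.8 points in WT, against 19.4 and 14.5 points in KO replicates 1 and 2. KO replicate 1 had the widest change of the 4 libraries in 18 of the 26 segments. Without KO replicate 1 limma called 11 member windows (6.47%, against 5.79% of all autosomal windows) and 0 segments (against 4.02%). Without KO replicate 2 it called 41 windows (24.1% against 20.2%) and 9 segments (34.6% against 42.9%). In these fits the lone KO library is assumed to vary like the WT libraries. The 9 segments included the largest rises of Fhit, Magi2, Lrp1b, Macrod2, Dlg2 and Auts2 and the largest fall of Auts2. Without KO replicate 2 limma also called 3 of 8 members for the SD inside the gene (31.4% of long genes). For mean polarity it called 0 of 8 with either KO library left out, although 9.96% of long genes were called without KO replicate 1 and 41.4% without KO replicate 2. For the longest run it called 2 of 8 without KO replicate 1 (19.7% of long genes) and 2 of 8 without KO replicate 2 (18.6%). After each library was divided by its own SD, limma called 0 windows (0.372% of all) and 2 segments (6.69% of all), both lower in KO (a rise beside Fhit and a rise in Immp2l, described with those genes). The part of amplitude in the differences below was not tested otherwise.

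At Fhit, polarity along the gene was lower on its 3′ side than on its 5′ side, with no rise called on the mean profile in between. It changed sign 5 and 5 times in WT, and 3 and 5 times in KO. Between 937 and 1137 kb from the 5′ end it went up in every library. In WT it went from -6.73 and -6.52 points to 4.41 and 9.66 points. In KO it went from -5.26 and -1.73 points to 6.65 and 9.58 points. The largest fall, at 10550000 to 10950000, measured -20.1 and -16.6 points in the WT libraries, against -16.0 and -20.1 points in the KO libraries. The genotypes overlapped, with a difference of 0.30 points (limma adjusted p = 0.987). The largest rise near Fhit lay in its 3′ flank at 9200000 to 9400000, where the change was 26.0 and 27.2 points in WT, against 12.1 and 18.7 points in KO. Both KO libraries were below both WT libraries there. The difference of -11.2 points did not pass (limma adjusted p = 0.470), but it passed once each library was standardised, at -0.99 SD (limma adjusted p = 0.0226). Along the Fhit strand, mean polarity was 3.58 and 4.45 points in WT, against 5.36 and 5.62 points in KO. Both KO values were higher, by a difference of 1.47 points with an SE of 2.00 points (limma adjusted p = 0.731). Positive polarity covered 68.8% and 70.3% of the windows inside Fhit in WT, and 65.6% and 68.8% in KO. The longest run of a single sign was positive in every library and began at the 5′ end. It measured 575 and 600 kb in WT, against 850 and 525 kb in KO, so that KO replicate 1 stood above and KO replicate 2 below both WT libraries. The difference of 100 kb (SE 149.8) had a limma adjusted p of 0.911. In the window with the lowest p-value, at 9800001 to 9900000, polarity along the coordinates was -6.97 and -5.96 points in WT, against 4.45 and 2.11 points in KO. The sign thus differed between genotypes in that window (difference 9.74 points; limma adjusted p = 0.394).

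Wwox was the member whose profile rose inside the gene without a fall. The main rise, at 114850000 to 115275000, measured 26.7 and 19.9 points in WT, against 29.6 and 21.0 points in KO. The genotypes overlapped and differed by 2.05 points (limma adjusted p = 0.910). A smaller rise crossed the lower-coordinate end of the gene at 114325000 to 114475000, an interval that also holds Vat1l and Clec3a. It measured 16.5 and 13.6 points in WT, against 22.0 and 14.0 points in KO. The longest run of a single sign in Wwox was negative, ended within the main rise, and measured 475 and 475 kb in WT, against 475 and 425 kb in KO. In steps of 25 kb the run was thus equal in both WT libraries and KO replicate 1. Interpolated between windows, it measured 476 and 485 kb in WT, against 467 and 425 kb in KO. In steps, the difference of -25 kb did not pass (SE 23.0; limma adjusted p = 0.686). This difference was -50 kb without KO replicate 1 and 0 kb without KO replicate 2. With a running mean of 3 windows it was -50 kb and passed (limma adjusted p = 0.00127), and with 9 windows it turned to 75 kb. In Wwox mean polarity along the coordinates was 1.70 and 0.88 points in WT, against 0.74 and -0.10 points in KO. Both KO libraries were lower (difference -0.97 points, SE 2.01; limma adjusted p = 0.808). In the flank before the lower-coordinate end, at 114100001 to 114200000, polarity was 1.11 and 0.36 points in WT, against -12.1 and -10.5 points in KO. This window showed the lowest p-value at Wwox (difference -12.1 points; limma adjusted p = 0.295), and the neighbouring window from 114200001 was also lower in both KO libraries.

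Immp2l had a high rise at its 5′ end and a second rise inside the gene. The first, at 40775000 to 41100000, overlaps Dock4 and the promoter shown above, and it measured 45.2 and 38.2 points in WT, against 45.6 and 34.4 points in KO. The difference of -1.75 points was below the spread between replicates (limma adjusted p = 0.926). The fall that follows, at 41100000 to 41350000, measured -25.1 and -24.1 points in WT, against -31.0 and -22.7 points in KO, and the genotypes overlapped (difference -2.24 points; limma adjusted p = 0.905). The inner rise, at 41525000 to 41825000, measured 27.1 and 36.7 points in WT, against 23.4 and 23.3 points in KO. Both KO libraries were below both WT libraries (difference -8.56 points; limma adjusted p = 0.591). On standardised libraries the difference of the same rise was -0.95 SD and passed (limma adjusted p = 0.0406). The genotypes differed in sign in a pair of windows between the foot of the fall and the middle of the inner rise. In the window at 41400001 to 41500000 polarity was -7.65 and -8.47 points in WT, against 5.71 and 6.60 points in KO. In the window at 41600001 to 41700000 it was -11.2 and -12.4 points in WT, against 0.29 and 3.19 points in KO. The differences of 14.2 and 13.6 points exceeded the pooled replicate SDs of 0.60 and 1.57 points, but neither passed over all windows (limma adjusted p = 0.222 and 0.250).

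The longest run inside Immp2l differed in sign and place between the genotypes. In WT the longest run was negative and measured 350 and 450 kb, from 41350000 and 41275000 on. WT replicate 1 was close to a tie, with a positive run of 325 kb at the 5′ side. In KO it was positive and measured 350 and 575 kb, and reached the 3′ end of the gene. The lengths overlapped, with a difference of 62.5 kb (SE 113.2; limma adjusted p = 0.968), although the runs lay in different places. Positive polarity covered 63.2% and 52.6% of the windows inside Immp2l in WT, against 73.7% and 86.8% in KO. Mean polarity along the strand was 8.66 and 4.82 points in WT, against 11.4 and 9.60 points in KO. Both KO libraries were higher, by 3.75 points on average with an SE of 2.28 points (limma adjusted p = 0.452). It was 1.83 points without WT replicate 2 and 5.67 points without WT replicate 1.

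Macrod2 lay beside a high rise that ended just before its 5′ end and held none inside on the mean profile, although a rise was called inside it in WT replicates 1 and 2 and KO replicate 2. That rise, at 139975000 to 140350000, covers Tasp1, Sel1l2 and Esf1 and measured 47.5 and 42.9 points in WT, against 63.6 and 40.4 points in KO. The KO libraries lay on either side of the WT libraries (difference 6.79 points; limma adjusted p = 0.679). Inside the gene the profile fell, recovered slowly and fell again. The larger fall, at 141650000 to 142225000, measured -32.8 and -24.2 points in WT, against -25.5 and -28.6 points in KO (difference 1.45 points; limma adjusted p = 0.942). Mean polarity along the strand was 5.09 and 3.04 points in WT, against 6.78 and 2.82 points in KO, and the genotypes overlapped (difference 0.73 points, SE 2.31; limma adjusted p = 0.894). The longest run was positive and measured 675 and 675 kb in WT, against 750 and 675 kb in KO. In both WT libraries it lay in the second part of the gene, from 141425000 and 141400000 on. In both KO libraries it reached the 5′ end, at 140400000. The length of the run differed by 37.5 kb (SE 34.5; limma adjusted p = 0.686), while its place differed as well. The length difference was 0 kb without KO replicate 1 and 75 kb without KO replicate 2. That place was close to a tie, since WT replicate 1 also had a positive run of 650 kb from the 5′ end and KO replicate 1 a later run of 700.0 kb. Just past the 3′ end, at 142400001 to 142500000, polarity was -2.91 and -5.28 points in WT, against -20.1 and -20.2 points in KO. This was the member window with the lowest adjusted p-value (difference -16.1 points, SE 4.50; limma adjusted p = 0.175).

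Magi2 showed a long decline through the gene towards a rise in its 3′ flank. The fall, at 19850000 to 20625000, was the longest of the 26 segments (775 kb) and measured -27.4 and -20.5 points in WT, against -33.4 and -21.1 points in KO. The genotypes overlapped (difference -3.36 points; limma adjusted p = 0.849). The rise at 20875000 to 21100000, which overlaps Phtf2, Ptpn12 and Rsbn1l, measured 34.8 and 31.7 points in WT, against 56.5 and 40.1 points in KO. The KO values were both higher, by 15.1 points on average (limma adjusted p = 0.323). Omission of KO replicate 1 gave 6.88 points and omission of KO replicate 2 gave 23.3 points. At the 5′ end, in the window at 19200001 to 19300000, polarity was 1.38 and 4.77 points in WT, against 19.2 and 17.8 points in KO. The genotypes were separated there by 15.5 points, against a pooled replicate SD of 1.84 points (limma adjusted p = 0.191). In the 3′ flank at 20800001 to 20900000 it was -13.9 and -15.7 points in WT, against -26.9 and -28.7 points in KO. Polarity in these windows at either end of Magi2 was therefore farther from 0 in KO. The SD of polarity inside the gene was 10.8 and 8.19 points in WT, against 18.1 and 13.0 points in KO. Its difference of 6.03 points (SE 2.28) had an unadjusted limma p of 0.0148 and did not pass after adjustment (limma adjusted p = 0.262).

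Forks in Magi2, under the reading above, ran mostly against its strand. Positive polarity covered 35.0% and 26.7% of the windows inside in WT, against 30.0% and 26.7% in KO. Mean polarity along the strand was -7.55 and -6.40 points in WT, against -9.12 and -6.14 points in KO (difference -0.66 points, SE 2.16; limma adjusted p = 0.898). The negative run up to the 3′ end measured 800 and 775 kb in WT, against 1050 and 975 kb in KO. The KO runs were both longer, and they began nearer to the 5′ end, at 19675000 and 19750000 against 19925000 and 19950000. The difference of 225 kb (SE 36.3) did not pass over all long genes (limma adjusted p = 0.197). With a running mean of 3 windows it was 112.5 kb (limma adjusted p = 0.705).

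Dlg2 showed a decline along most of the gene between a rise at each side. The rise at the 5′ end, at 90425000 to 90650000, overlaps Tmem126b, Tmem126a and Crebzf and measured 29.3 and 23.2 points in WT, against 21.8 and 22.3 points in KO. The KO values were both lower (difference -4.24 points; limma adjusted p = 0.807). A fall before it, at 90225000 to 90425000 (Sytl2 and Ccdc83), measured -27.4 and -17.0 points in WT, against -18.7 and -21.1 points in KO (difference 2.27 points; limma adjusted p = 0.905). The rise past the 3′ end, at 92525000 to 92950000, covers Rab30, Prcp and Ankrd42 and was the highest beside any member. It measured 52.6 and 46.9 points in WT, against 67.8 and 53.4 points in KO, with both KO libraries higher (difference 10.9 points; limma adjusted p = 0.482); the direction turned to -0.04 SD on standardised libraries. In the window at the 5′ end, at 90500001 to 90600000, polarity was 9.27 and 9.79 points in WT, against 25.9 and 20.5 points in KO (difference 13.7 points; limma adjusted p = 0.251).

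Polarity in Dlg2 kept a positive run of more than 1 Mb in every library, which began at or near the 5′ end. The run measured 1125 and 1350 kb in WT, against 1075 and 1100 kb in KO. The KO runs were both shorter, but the WT libraries also differed from each other (difference -150 kb, SE 104.1; limma adjusted p = 0.686). Omission of WT replicate 1 gave -262.5 kb and omission of WT replicate 2 gave -37.5 kb. Mean polarity along the strand was 2.99 and 4.33 points in WT, against 3.78 and 2.23 points in KO, and the genotypes overlapped (difference -0.66 points, SE 2.06; limma adjusted p = 0.893). Positive polarity covered 57.7% and 69.2% of the windows in WT, against 55.1% and 56.4% in KO.

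Lrp1b, the longest member, had a single rise inside, 292 kb from its lower-coordinate end, followed by a slow decline. The rise, at 40725000 to 41050000, measured 39.1 and 40.5 points in WT, against 54.0 and 29.4 points in KO. The KO libraries lay on either side of the WT libraries (difference 1.95 points; limma adjusted p = 0.914). The fall across the lower-coordinate end, at 40350000 to 40725000, measured -24.0 and -23.3 points in WT, against -30.4 and -20.4 points in KO (difference -1.74 points; limma adjusted p = 0.926). A fall in the decline, at 41950000 to 42275000, measured -11.9 and -12.2 points in WT, against -15.1 and -20.8 points in KO. Both KO values were lower there (difference -5.86 points; limma adjusted p = 0.727). Mean polarity along the coordinates was near 0 in every library, at 0.18 and 0.98 points in WT, against 1.22 and 1.10 points in KO (difference 0.58 points, SE 1.99; limma adjusted p = 0.898). The long positive run after the rise measured 1100 and 1100 kb in WT, against 1150 and 1150 kb in KO. Its difference of 50 kb was the single call among the members (SE 0.44; limma adjusted p = 0.00067). Run lengths come in steps of 25 kb, and the SE is that small because the replicates fell on the same step. With run ends interpolated between windows the lengths were 1103 and 1119 kb in WT, against 1147 and 1163 kb in KO. The genotypes stayed apart, but the difference of 44.2 kb (SE 10.2) was no longer called (limma adjusted p = 0.261). With a running mean of 3 windows the Lrp1b difference was -187.5 kb (limma adjusted p = 0.746), and with 9 windows it was 75 kb (limma adjusted p = 0.285). Beyond the higher-coordinate end, at 42700001 to 42800000, polarity was 5.72 and 0.53 points in WT, against -18.8 and -6.10 points in KO (difference -15.5 points; limma adjusted p = 0.230).

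Auts2 was flanked by a rise at each end, with a deep fall between them. The rise at the lower-coordinate end, at 131350000 to 131650000, measured 25.1 and 29.3 points in WT, against 57.0 and 36.5 points in KO. Both KO libraries were higher, and the difference of 19.5 points had the lowest adjusted p-value of the 26 segments (limma adjusted p = 0.191). The rise at the other end, at 132450000 to 132675000, measured 43.2 and 36.1 points in WT, against 58.2 and 49.4 points in KO. The KO values were again higher, by 14.2 points on average (limma adjusted p = 0.362). On standardised libraries the 2 rises kept their direction, at 0.72 and 0.32 SD (limma adjusted p = 0.102 and 0.539). The fall at 131950000 to 132450000 was the deepest of the 13 and measured -48.2 and -38.9 points in WT, against -61.7 and -34.7 points in KO. The KO libraries lay on either side of the WT libraries (difference -4.64 points; limma adjusted p = 0.788). The positive run between the first rise and the fall measured 625 and 650 kb in WT, against 600 and 675 kb in KO, with a difference of 0 kb (SE 36.3; limma adjusted p = 1). For the whole of Auts2, mean polarity along the coordinates was -0.51 and -1.45 points in WT, against 1.41 and -0.47 points in KO (difference 1.45 points, SE 2.06; limma adjusted p = 0.733). That difference was 0.51 points without KO replicate 1 and 2.39 points without KO replicate 2. In the window at 131600001 to 131700000 polarity was 10.8 and 9.77 points in WT, against 27.0 and 19.8 points in KO (difference 13.2 points; limma adjusted p = 0.265).

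**Figure D2:**
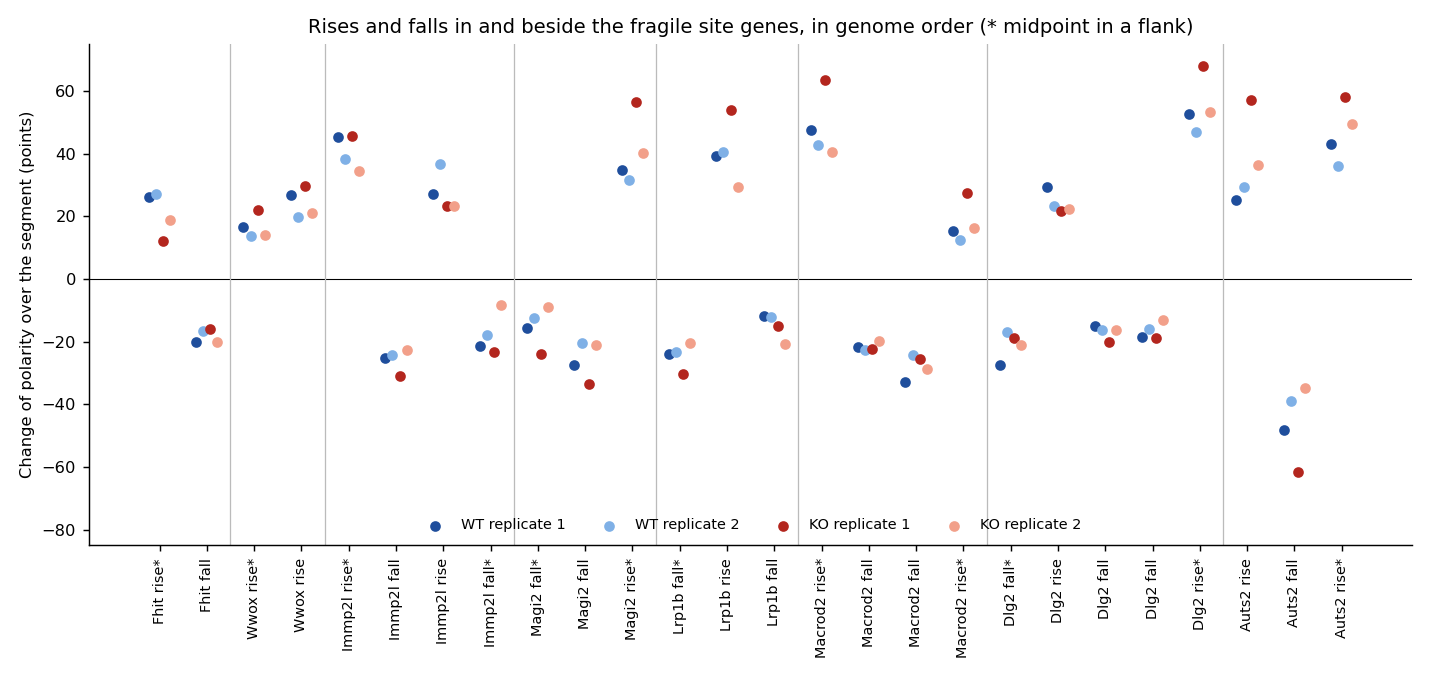
Change of polarity in points over each of the 26 rises and falls in and beside the 8 genes, with a point per library. In 18 of the 26 the change was widest in KO replicate 1 (dark red), and in 16 of the 26 (61.5%, against 54.5% of all autosomal segments) the points of the genotypes overlapped.

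**Figure D3:**
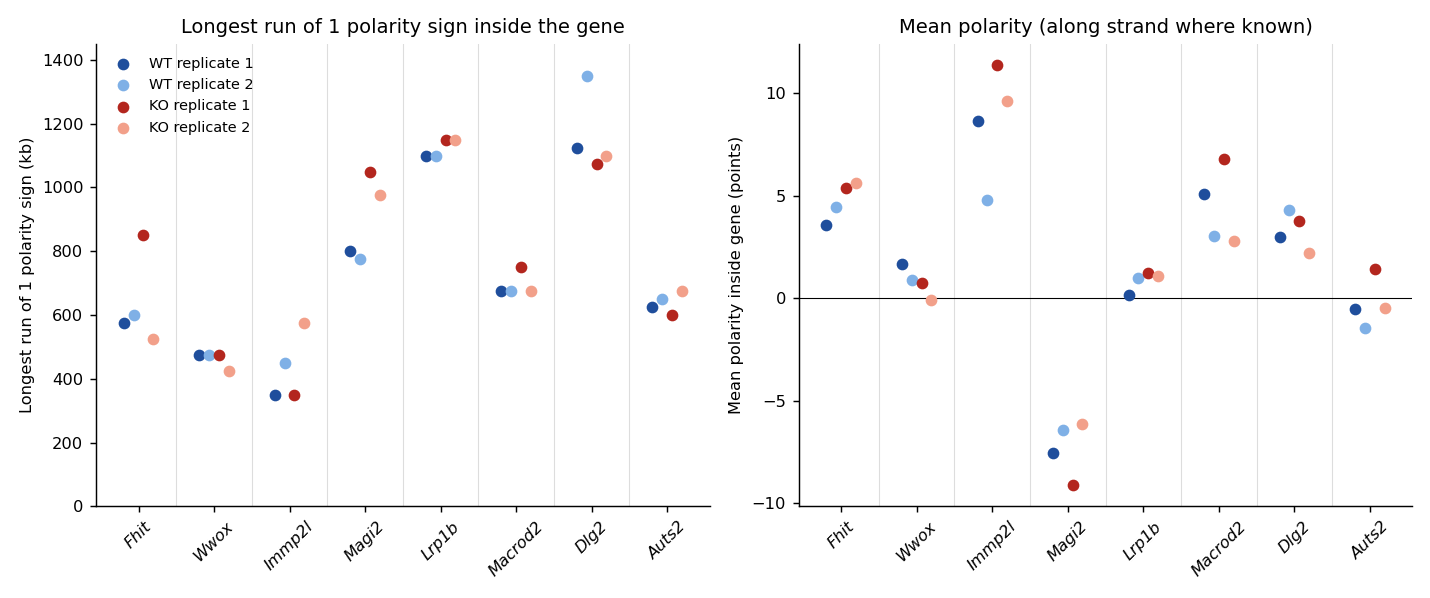
Longest run of a single polarity sign in kb (left) and mean polarity in points (right) inside each gene, with a point per library. For the run, both KO points lie above both WT points at Magi2 and Lrp1b and below them at Dlg2 (3 of 8, or 37.5%, against 27.6% of the 532 long genes). For mean polarity they lie above at Fhit, Immp2l, Lrp1b and Auts2 and below at Wwox (5 of 8, or 62.5%, against 48.5%).

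Over the 13 rises of the members the change was larger in KO in 9 (69.2%), against 79.2% of 2461 autosomal rises. The median difference was 2.92 points for the members' rises and 6.13 points for all. Over the 13 falls the change was larger in KO in 7 (53.8%), against 80.9% of 2444 autosomal falls. The median difference was -1.74 points for the members' falls and -5.41 points for all. On standardised libraries the change was larger in KO in 4 of 13 member rises (30.8% against 46.9%) and in 1 of 13 member falls (7.69% against 46.4%). These shares are descriptions of 26 segments in 8 regions, some of them adjacent.

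Long genes in general held few rises in these profiles. The members had 0.414 rises per Mb, the 524 other long genes had 0.381 rises per Mb, and the autosomes as a whole had 1.04 rises per Mb. Falls numbered 0.745 per Mb in the members, 1.41 per Mb in the other long genes and 1.03 per Mb on the autosomes. The 60 other genes at least as long as Wwox, the shortest member, were closer, with 0.422 rises and 0.858 falls per Mb. On the mean profile, no rise lay inside 3 of the 8 members (37.5%) and inside 31 of those 60 genes (51.7%). A rise had its midpoint within 100 kb of either end in 4 members (Auts2 at both ends, and Dlg2, Immp2l and Wwox), or 50%, against 41.7% of the 60 genes.

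The longest distance between neighbouring rises that overlapped any part of a member ranged from 1437.5 kb at Auts2 to 2562.5 kb at Immp2l, with a median of 2281 kb. At Auts2, Immp2l and Wwox most of that stretch lay outside the gene. The median was 2181 kb for the 60 genes and 750 kb for all neighbouring rises on the autosomes. The members' median longest run was 656 kb in WT and 700.0 kb in KO, against 581 and 638 kb in the 60 genes, whose median length was 1137 kb against 1549 kb for the members. As a share of the gene, the median run was 51.9% in WT and 52.1% in KO for the members, against 48.9% and 51.9% for the 60 genes. In WT, Dlg2 ranked 1 of the 532 genes for the longest run, shared with another gene, Lrp1b ranked the third and Magi2 ranked 20. Macrod2 ranked 35, Auts2 42, Fhit 60, Wwox 124 and Immp2l 191. Dlg2, Lrp1b, Magi2, Macrod2 and Fhit ranked 6, 4, 15, 5 and 9 in length, and Auts2, Immp2l and Wwox 40, 63 and 68. The run was longer in KO in 5 of 8 members (62.5%) and in 63.3% of the 60 genes. A straight line fitted to polarity along the coordinates, averaged per genotype, sloped down inside 7 of 8 members in WT and 6 of 8 in KO. At Lrp1b it was almost flat (-0.17 points per 100 kb in WT and -0.07 in KO). Inside the 60 genes the line sloped down in 85.0% in either genotype. Of the 5 members with a given strand, 4 had positive mean polarity along it in both genotypes, Magi2 being the exception, against 34.8% in WT and 41.3% in KO of the 46 of the 60 genes with a given strand. If the sign convention is the opposite, the count is 1 of 5, against 65.2% in WT and 58.7% in KO. No test was made of these summaries.

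**Figure D4:**
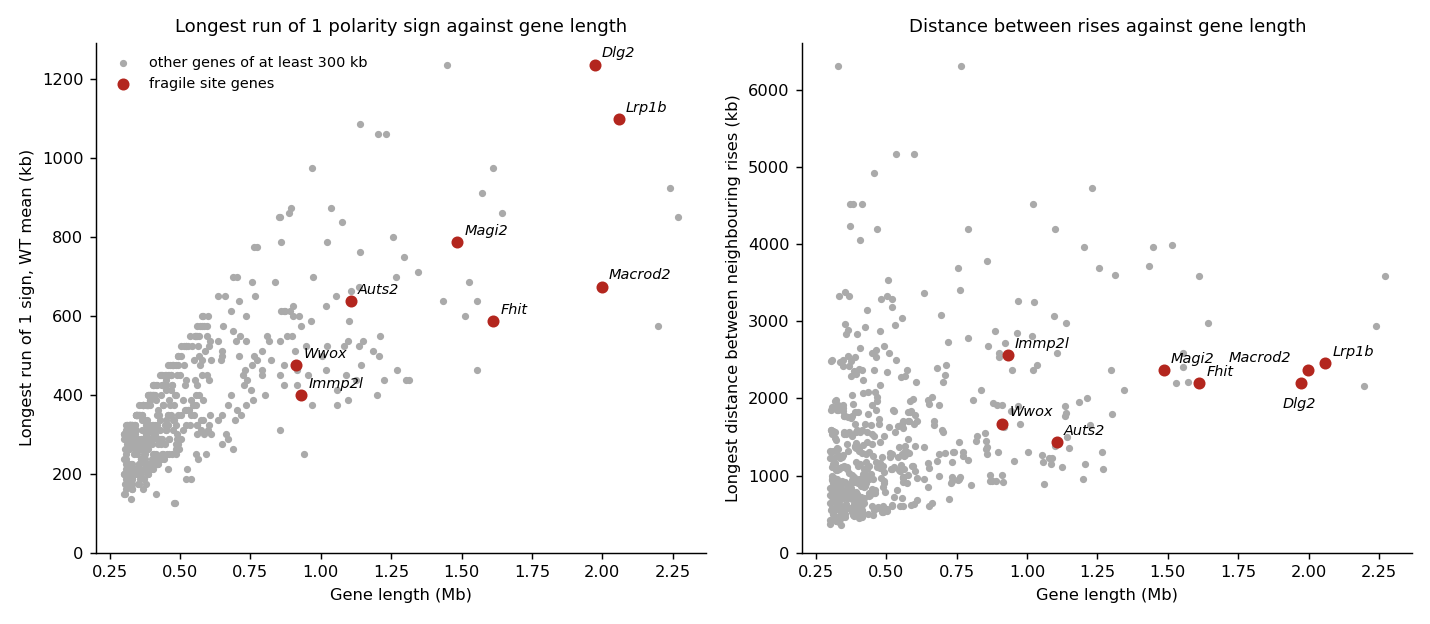
Longest run of a single polarity sign in WT in kb (left) and longest distance between neighbouring rises in kb (right) against gene length in Mb, with a point per autosomal protein-coding gene of at least 300 kb. The 8 fragile site genes (red) lie among other long genes (grey), with Dlg2 at the top of the left panel.

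Another 8 long genes known from human common fragile sites were described as well (Ctnna3, Dpyd, Nbea, Cntnap2, Rora, Dab1, Naaladl2 and Esrrg). Limma called 0 of these 8 for mean polarity (0% of the 532 long genes) and 0 for the SD inside the gene (0.376% of them), with 0 at an unadjusted p-value under 0.05 for each (13.9% and 11.3% of the long genes). It called 1 for the longest run (6.77% of the long genes; 2 at an unadjusted p-value under 0.05, against 12.2% of the long genes), Nbea, which is named because it was called; on standardised libraries it was not (-12.5 kb; limma adjusted p = 0.686). The run in Nbea was 375 and 375 kb in WT, against 350 and 350 kb in KO, so its replicates also fell on the same steps. The 2 largest differences in mean polarity among them were at Ctnna3 and Naaladl2. Ctnna3, which encodes an alpha-catenin, had 12.4 and 10.9 points in WT, against 18.1 and 13.2 points in KO (difference 4.04 points; limma adjusted p = 0.446). Naaladl2 had -10.3 and -8.09 points in WT, against -8.37 and -2.47 points in KO, and its genotypes overlapped (difference 3.76 points; limma adjusted p = 0.484).

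The shape of each member's profile over 20 equal bins of the gene was compared with that of 518 other long genes, as a mean over the 4 libraries. Magi2 was most like Nell2 (Pearson r = 0.987) and Dlg2 most like Pcca (r = 0.984). Wwox was most like Pakap (r = 0.965), Auts2 most like Csgalnact1 (r = 0.948) and Immp2l most like Mcc (r = 0.935). Lrp1b was most like Ccdc148 (r = 0.917), Macrod2 most like Pard3b (r = 0.912) and Fhit most like Nkain3 (r = 0.877). The bins share windows and libraries, so these values are descriptions, and the likeness is the highest of 518. Genes without a given strand ran along the coordinates. This holds for a single gene of the pair at Fhit, Wwox, Immp2l, Magi2 and Lrp1b, and for both at Auts2. Direction along the gene is therefore not compared in those pairs. Nell2, Pcca, Pakap, Csgalnact1, Mcc and Ccdc148 held 13, 16, 18, 15, 15 and 14 windows, fewer than the 20 bins.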

How the data were processed

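Reads were trimmed with Trim Galore 0.6.5 and aligned with Bowtie2 2.4.1 to GRCm38, per the submitters' processing notes, and deduplicated for each library, per the file headers. The authors' deposited values are a signed score of strand imbalance per window, on a scale of points between -50 and 50. The program, the sign convention and any minimum of reads per window are not given in the sources used here. The table gives no counts, so depth is unknown and no counting interval was computed. The label of WT replicate 2 carries another index than its column, which was matched by the rest of its name.

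Full-length windows of the 19 autosomes were used where no library lacked a value. Gene intervals and promoters came from RefSeq (GRCm38.p6). Long genes were those of at least 300 kb with at least 8 windows. A run is the longest stretch of windows inside a gene whose running mean of 5 windows keeps its sign. Differences are KO minus WT, tested with limma 3.58.1 (lmFit and eBayes, R 4.3.3) over all features of a fit with Benjamini-Hochberg adjustment at 0.05. On simulated data the fit recovered 200 of 200 shifted windows of 23672 with 9 false calls, and 200 of 200 shifted segments of 4905 with 5 false calls. Simulated features of a fit shared a single SD, and the shifts of 39.9 and 55.5 points were many times that SD. Full recovery was therefore built in. Smaller shifts, unequal spreads and run lengths in steps were not tested on simulated data.

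The members, lists and tests were chosen with earlier results of these data known. For each member the largest rise and fall were named by rule, with up to 3 protein-coding genes that overlap them, longest first, every call, the 2 largest differences of the other listed genes and the most alike long gene. Some listed genes are not reported here. Other segments and windows were chosen after their values were seen. Replicate numbers are shared by the genotypes, but with 2 pairs they do not show a pairing, and the block was kept as an alternative. Alternatives were standardising or centring of libraries, the block, other window spacing, smoothing, minimum change, gene length and limma options, omission of each library, and interpolated run ends, the last chosen after seeing the data. Python 3.11.15, numpy 2.4.6, pandas 2.3.3 and matplotlib 3.10.9 were used.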

Additional observations from a re-analysis of the deposited data

How the results depend on the processing

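Each genotype had 2 libraries, and depth and any minimum of reads per window are unknown. Windows of 100 kb blur transitions, and run lengths are set by the smoothing. Mean polarity gave 0 calls among the members under every alternative run, while 14.3% of long genes were called with the replicate block and 6.77% with standardised libraries. The counts of called member windows, segments, runs and SDs moved as follows. Called member windows numbered 3 with the replicate block (1.76%, against 2.66% of all windows; at Macrod2, Magi2 and Lrp1b, limma adjusted p = 0.0233, 0.0309 and 0.0332), 6 with the replicate block and standardised libraries (3.53% against 3.54%), and 1 with limma's trend and robust options (0.588% against 1.28%), where the report gives 0. Called segments numbered 2 with the replicate block (a rise at Auts2, limma adjusted p = 0.00827, and the largest rise of Magi2, limma adjusted p = 0.0458), 2 with standardised libraries and 2 with both, where the report gives 0. These 2 are 7.69%, against 9.75%, 6.69% and 8.48% of all segments. The replicate block gave 1 call for the SD inside the gene, Magi2 (limma adjusted p = 0.0246; 7.14% of long genes). The correlation of deviations between libraries with the same number was 0.241 (0.0158 once libraries were standardised) over 2 pairs, so the numbers were not taken as a pairing. The call at Lrp1b was lost with a running mean of 3 windows, where the single call was Wwox instead (5.26% of long genes were called). Calls for the longest run numbered 0 with a running mean of 9 windows (5.08% of long genes), with interpolated run ends (3.20%), and with interpolated ends and the replicate block together (0%). Omission of a library gave 0 to 41 windows, 0 to 9 segments, 1 to 2 runs and 0 to 3 SDs.

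Of 86 other recomputations of differences at named genes and segments, 68 gave the same result, 2 were weaker, 3 were stronger and 13 reversed. Standardising reversed mean polarity at Magi2 (0.0614 SD) and Macrod2 (-0.0209 SD). It also reversed the largest rises of Wwox (-0.20 SD), Lrp1b (-0.51 SD), Macrod2 (-0.27 SD) and Dlg2 (-0.0404 SD), and the largest falls of Immp2l (0.22 SD), Magi2 (0.15 SD), Lrp1b (0.24 SD) and Auts2 (0.38 SD). With a running mean of 9 windows the run difference was 75 kb at Wwox, and with 3 windows it was -50 kb at Immp2l and -187.5 kb at Lrp1b. Of 124 omissions of a library, 92 gave the same result, 9 were stronger and 23 reversed. Where omission turned the direction, the differences in mean polarity were -1.43 to 0.12 points at Dlg2, -1.25 to 2.71 points at Macrod2 and -2.15 to 0.83 points at Magi2, and the run differences -62.5 to 262.5 kb at Fhit and -50 to 175 kb at Immp2l. For the largest falls they were -18.1 to 8.87 points at Auts2, -2.93 to 7.46 points at Dlg2, -1.74 to 2.35 points at Fhit, -6.44 to 1.95 points at Immp2l, -6.74 to 3.25 points at Lrp1b, -2.88 to 5.78 points at Macrod2 and -9.51 to 2.79 points at Magi2. For the largest rises they were -7.34 to 3.85 points at Immp2l, -10.3 to 14.2 points at Lrp1b, -4.83 to 18.4 points at Macrod2 and -2.25 to 6.36 points at Wwox. For none of these changes was the cause tested.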
